A study of Mus musculus with 2 samples.

Results

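The collagen chain genes are the genes that encode the α chains of collagens, and they were taken here as every mouse gene whose symbol has the form Col, a number, a and a number. The RefSeq gene table held 44 such genes, of which 42 had a matched probe on the array, and 26 of these were measured, meaning that at least 1 probe was well above background on at least 1 array. Across the whole array 13848 named genes were measured by the same rule. The 26 genes comprised 7 fibrillar, 6 basement membrane, 4 FACIT, 2 short-chain, 2 beaded filament and 2 multiplexin chains, with 1 anchoring fibril chain, 1 transmembrane chain and 1 chain of no larger class. A further 16 genes were not well above background on either array, and Col12a1 and Col6a3 had no matched probe.

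A collagen molecule is a triple helix of α chains, which are identical in some types and the products of different genes in others. Fibrillar collagens pack into the banded fibers of the interstitium, FACIT collagens sit on the surface of such fibers, type IV chains form the network of basement membranes, and short-chain collagens form open lattices. In the heart, type I and type III collagen made by fibroblasts are the bulk of the interstitial matrix, basement membrane collagens surround cardiomyocytes and capillaries, and an excess of interstitial collagen is what pathologists call fibrosis.

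Left ventricular RNA was collected at ZT 2, that is, 2 h after lights on, from male mice aged 12 weeks. H-Bmal1-/- mice carried a floxed Bmal1 gene and Cre recombinase driven by the αMHC promoter, which is active in cardiomyocytes, and the control animals were littermates with the floxed gene but without Cre, although the sample labels call them wild type. The RNA of 6 animals per genotype was pooled and each pool was hybridized to 1 single-color Agilent mouse array, so that there was 1 array per genotype, there was no group with Cre alone, and no difference between the genotypes could be tested. All values below therefore compare these 2 pools, and the number of arrays limits their precision.

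Signals are given as the log2 of the processed signal relative to the 75th percentile of the same array, and a log2 ratio is the value of the knockout pool minus that of the control pool. The arrays shared 1 slide and 1 scan, the control array had 49.4% of its noncontrol spots well above background, and no noncontrol spot was saturated on either array. For the 247 probes printed at least 8 times, the median SD of the log2 ratio between spots was 0.07, which covers the array measurement and not the spread between animals. The single probe for Arntl, as Bmal1 is called in RefSeq, had a log2 signal of 1.58 for control and 0.79 for knockout, but whether it lies in the deleted region is unknown here.

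The bases before the transcription start of 4 of the measured genes are shown for the letters that the chains share or do not share in front of the gene. Col1a2 and Col3a1 encode the interstitial collagens, Col8a1 had the highest log2 ratio of the collagen chain genes, and Col16a1 is a FACIT gene with the same CCAAT letters as Col1a2 at a similar distance from its start. The sequences are from RefSeq (GRCm38.p6), each covers the 250 bases before the annotated start and is written 5′ to 3′ on the strand of the gene, and capitals mark CCAAT or TATAAA. They lie at chr6:4505368-4505617 on the plus strand for Col1a2, chr1:45311288-45311537 on the plus strand for Col3a1, chr4:130047590-130047839 on the plus strand for Col16a1 and chr16:57754738-57754987 on the minus strand for Col8a1.
Col1a2: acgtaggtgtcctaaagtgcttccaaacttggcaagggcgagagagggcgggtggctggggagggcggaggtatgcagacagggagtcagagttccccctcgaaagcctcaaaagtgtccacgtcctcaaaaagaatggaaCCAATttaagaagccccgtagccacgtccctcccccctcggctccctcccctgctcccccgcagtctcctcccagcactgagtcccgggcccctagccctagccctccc
Col3a1: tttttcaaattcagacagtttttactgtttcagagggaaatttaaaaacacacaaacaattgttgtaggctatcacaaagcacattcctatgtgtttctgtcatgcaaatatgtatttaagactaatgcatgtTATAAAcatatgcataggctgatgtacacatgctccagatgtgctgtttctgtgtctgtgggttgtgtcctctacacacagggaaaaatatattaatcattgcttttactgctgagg
Col16a1: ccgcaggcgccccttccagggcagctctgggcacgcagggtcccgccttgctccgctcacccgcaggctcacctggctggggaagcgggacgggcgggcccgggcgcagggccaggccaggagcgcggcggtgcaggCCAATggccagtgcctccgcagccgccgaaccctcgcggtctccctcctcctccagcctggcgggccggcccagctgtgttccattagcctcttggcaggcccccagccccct
Col8a1: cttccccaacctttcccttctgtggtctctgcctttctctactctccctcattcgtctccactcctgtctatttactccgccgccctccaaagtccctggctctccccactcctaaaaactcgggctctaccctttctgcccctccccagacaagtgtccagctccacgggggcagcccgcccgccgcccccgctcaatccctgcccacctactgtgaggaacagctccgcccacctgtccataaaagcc
The CCAAT letters began 109 bases before the annotated start in Col1a2 and 113 bases before it in Col16a1. TATAAA began 117 bases before the start of Col3a1, and the Col8a1 stretch held neither. GC content was 62.0% for Col1a2, 75.6% for Col16a1 and 60.8% for Col8a1, whereas the Col3a1 stretch had 35.2%.

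Promoter windows of 250 bases before to 50 bases after an annotated start were then searched on both strands for 3 motifs, none of whose matches overlapped another in the collagen windows. The E-box CACGTG, the letters that BMAL1 and its partner CLOCK are known to bind, occurred in 7.15% of 32851 windows and in 0 of the 38 windows of 35 collagen chain genes. Of the 26 measured genes, 21 had a window, and Col1a1 was among those without one. CCAAT occurred in 37.4% of all windows and in 13 of the 38 collagen windows (34.2%). TATAAA occurred in 13.6% of all windows and in 5 of the 38 collagen windows (13.2%), with Col3a1 as the single measured gene. These are matches of letters in short windows, and the absence of CACGTG says only that these letters are not there.

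The log2 ratio was above 0 for 25 of the 26 measured collagen chain genes, compared with 48.4% of all named genes. At least 1.5-fold higher signals in the knockout pool were found for 12 collagen chain genes, against 7.31% of all named genes. None was at least 1.5-fold lower, against 6.32%, and 5 were at least 2-fold higher, against 3.48%. The median log2 ratio of the 26 genes was 0.53, or 1.44-fold, with quartiles of 0.40 and 0.70 and a range from -0.05 to 2.02, while the median of all named genes was -0.01.

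For Col4a3 and Col8a2 only the knockout array had a signal well above background, so that both entered the count through the pool in which they were higher. Among the 24 genes above background on both arrays, 23 had a log2 ratio above 0, 10 were at least 1.5-fold higher (5.10% of all named genes measured on both arrays), and the median log2 ratio was 0.47. The collagen chain genes also differed in how bright their probes were. Of 11 genes with a control signal above the 75th percentile of the array, all had a log2 ratio above 0, between 0.11 and 0.90, and 4 were at least 1.5-fold higher, against 3.06% of all named genes this bright. Of 15 genes below that percentile, 14 were above 0, 8 were at least 1.5-fold higher, against 12.6% of all named genes this dim, and these included all 5 genes at least 2-fold higher, against 6.57%. Large log2 ratios were thus found among the dimmer probes, where they were smaller with a normexp background correction, and moderate ones of the same direction among the bright probes.

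**Figure D1:**
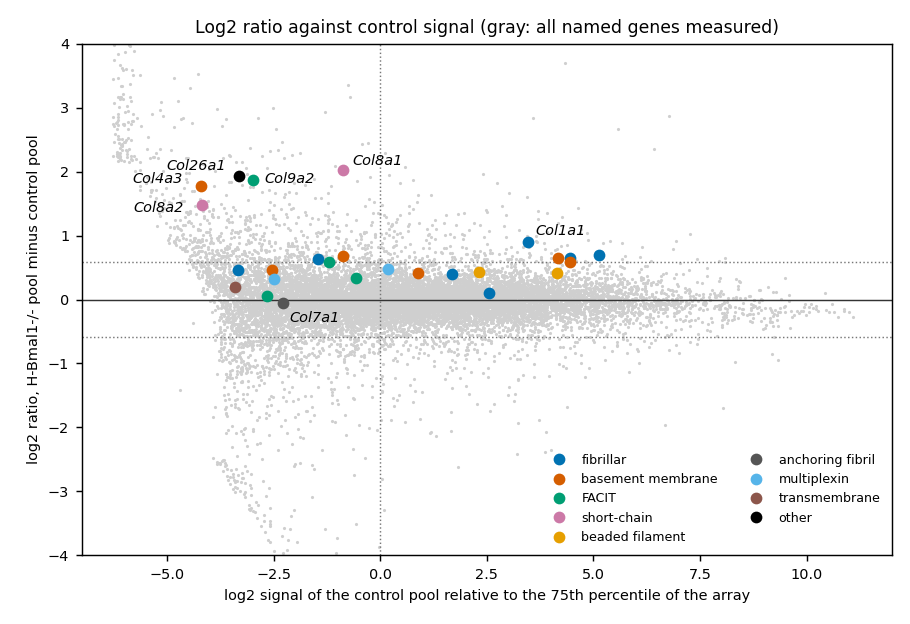
Log2 ratio (knockout pool minus control pool) of each named gene against its log2 signal in the control pool relative to the 75th percentile of the array, with collagen chain genes colored by class and all other named genes in gray. Dotted horizontal lines mark 1.5-fold and the dotted vertical line the 75th percentile, 38 genes lie outside the axes, and all collagen chain genes but Col7a1 lie above 0.

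The fibrillar chains had a median log2 ratio of 0.63, and 4 of the 7 were at least 1.5-fold higher, against 7.31% of all named genes. Col1a1, which encodes the α1 chain of type I collagen, had a log2 signal of 3.47 for control and 4.37 for knockout, a ratio of 0.90 or 1.87-fold. Its partner Col1a2 had 5.14 and 5.84, a log2 ratio of 0.70 or 1.62-fold. Col3a1, whose product forms type III collagen on its own, had 4.46 and 5.10, a log2 ratio of 0.64 or 1.56-fold. These 3 genes of the interstitial fibers had bright probes, with processed signals of 1894, 6035 and 3757 in the control pool, and were at least 1.5-fold higher under every one of the 10 processing alternatives.

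The chains of type V collagen, which start and limit the growth of type I fibers, differed among themselves. Col5a2 had log2 signals of -1.46 and -0.83 in the control and knockout pools, a ratio of 0.63 or 1.55-fold. Col5a1 had 1.68 and 2.07, a ratio of 0.39 or 1.31-fold, and Col5a3 had 2.55 and 2.65, a ratio of 0.11 or 1.08-fold. The α1 and α2 chains of this type were thus further from 0 than α3, although the value of Col5a2 was 0.34 with normexp, below the 1.5-fold limit. Col27a1, a fibrillar chain known from cartilage, had -3.34 and -2.87, a ratio of 0.47 that was 0.04 with a normexp background correction. Of the other fibrillar genes, Col2a1, Col11a1, Col11a2 and Col24a1 were not well above background on either array. Col2a1 and both type XI chains are known from cartilage fibers.

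The 6 type IV chains of basement membranes were all measured, with a median log2 ratio of 0.62. Of these, 3 were at least 1.5-fold higher, against 7.31% of all named genes. Col4a1 and Col4a2 encode the chains found in nearly every basement membrane. The Col4a1 probe was printed 10 times on each array, and its processed signal was 3105 ± 165 (SD, n = 10 spots) on the control array and 5422 ± 271 (SD, n = 10 spots) on the knockout array. On the log2 scale the spots lay between 4.02 and 4.25 on the control array and between 4.73 and 4.96 on the knockout array, so that the spots of the arrays did not overlap. Spots of 1 probe measure the same RNA and are not replicates of a genotype. The log2 ratio of Col4a1 was 0.65 or 1.57-fold, and Col4a2 had log2 signals of 4.46 and 5.04, a ratio of 0.58 or 1.49-fold just below the 1.5-fold limit.

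The other type IV chains belong to more specialized basement membranes, such as those of the kidney. Col4a5 had log2 signals of 0.89 and 1.30 in the control and knockout pools, a ratio of 0.42 or 1.34-fold. Col4a4 had -0.88 and -0.19, a ratio of 0.69 or 1.61-fold, with its probes at 0.43 and 0.95. Col4a6 had -2.53 and -2.07, a ratio of 0.46 or 1.38-fold, with its probes at 0.07 and 0.86. For both genes the probes agreed in direction and differed in size. Col4a3 was not well above background in the control pool, where its log2 signal was -4.20, and reached -2.43 in the knockout pool. Set against the dimmest control signal that counted as above background, it was 2.87-fold higher. With normexp its log2 ratio was 0.47, and that of Col4a4 was 0.43.

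**Figure D2:**
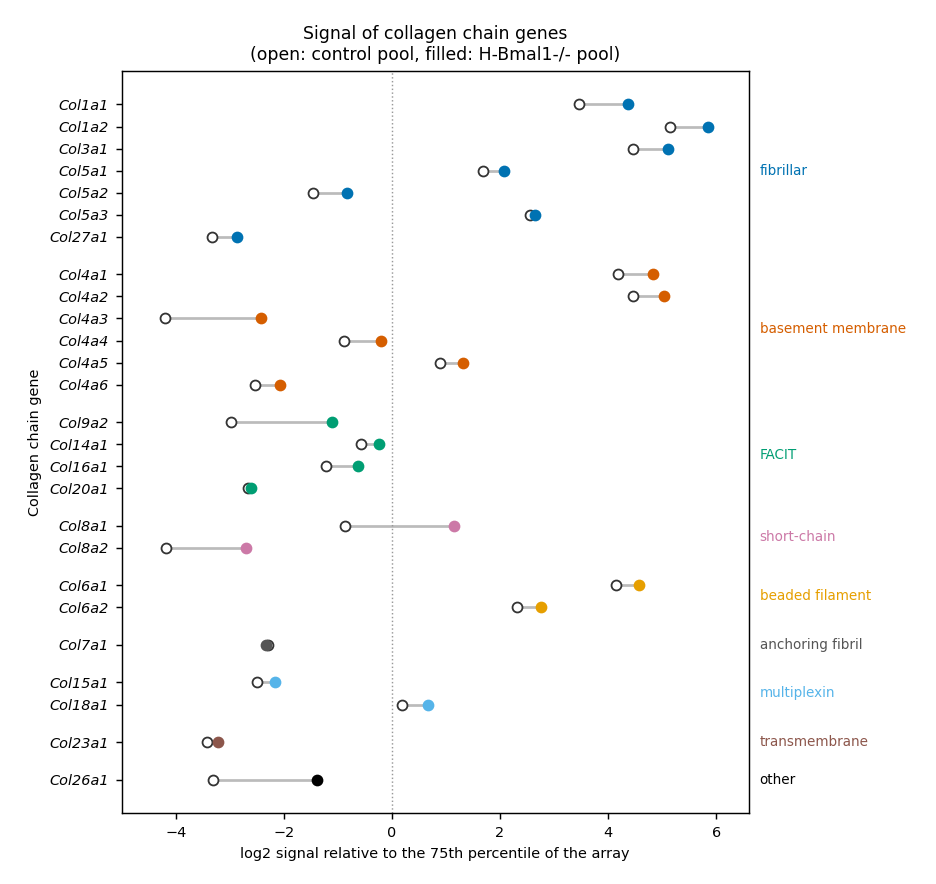
Log2 signal of the 26 measured collagen chain genes relative to the 75th percentile of the array (dotted line), grouped by class, with open circles for the control pool and filled circles for the H-Bmal1-/- pool. Each circle is 1 array and the mean over the probes of the gene, levels of different genes are read by different probes and are not comparable, and the filled circle lies to the right of the open one for every gene but Col7a1.

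The 4 measured FACIT chains had a median log2 ratio of 0.46, and their values ranged from 0.05 to 1.87. Col9a2, a chain of type IX collagen that is known from cartilage, had processed signals of 21.7 (control) and 88.1 (knockout), and log2 signals of -2.98 and -1.11. Its log2 ratio was 1.87 or 3.66-fold, and 0.79 with normexp. Col9a1 and Col9a3, which encode the partner chains of type IX, were not well above background on either array. Col16a1 had log2 signals of -1.21 and -0.62, a ratio of 0.59 just past the 1.5-fold limit. Its probes had 0.01, 0.76 and 0.99, and the first of them was not well above background in the control pool. The ratio of Col16a1 was 0.88 with the filter on both arrays and 0.38 with normexp. Col14a1, whose product binds to interstitial fibers, had -0.58 and -0.24, a ratio of 0.34 or 1.27-fold. Col20a1 had a log2 ratio of 0.05 with its probes at -0.16 and 0.27. Its sign turned when the brightest probe alone was used and with normexp. Col19a1 and Col22a1 were not well above background.

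The short-chain gene Col8a1, which encodes a chain of the lattice collagen of vessel walls and of the cornea, had the highest log2 ratio among the collagen chain genes measured on both arrays. Its processed signal was 93.2 for control and 419 for knockout, its log2 signals were -0.88 and 1.14, and the log2 ratio was 2.02 or 4.05-fold. With normexp it was 1.53. Col8a2, the partner chain, had a log2 signal of -4.18 in the control pool, where it was not well above background, and -2.70 in the knockout pool. By 1 probe it was 2.38-fold higher than the dimmest control signal above background, with a log2 ratio of 0.30 under normexp. Its second probe, with a log2 ratio of -0.67, was not well above background on either array. Col10a1, a short-chain collagen of growth plate cartilage, was not well above background.

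The remaining measured chains were mostly closer to 0. Type VI collagen forms beaded filaments close to the surface of cells, and its chains Col6a1 and Col6a2 had log2 ratios of 0.42 and 0.44, or 1.34-fold and 1.35-fold, from log2 signals of 4.15 and 2.32 in the control pool to 4.57 and 2.76 in the knockout pool. The multiplexins Col15a1 and Col18a1 are found in the zone of basement membranes, and the end of the Col18a1 product is endostatin. Col15a1 had log2 signals of -2.49 and -2.17, a ratio of 0.32 or 1.25-fold, and Col18a1 had 0.19 and 0.67, a ratio of 0.48 or 1.39-fold. Col7a1, the anchoring fibril collagen of the skin, had -2.29 and -2.34, a ratio of -0.05. Its sign turned without scaling, with cyclic loess and with quantile normalization. The transmembrane collagen gene Col23a1 had a ratio of 0.19 with its probes at -0.17 and 0.56, and its sign turned under an alternative as well. Col26a1 had processed signals of 17.2 (control) and 72.9 (knockout), a log2 ratio of 1.93 or 3.82-fold that was 0.54 with normexp.

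**Figure D3:**
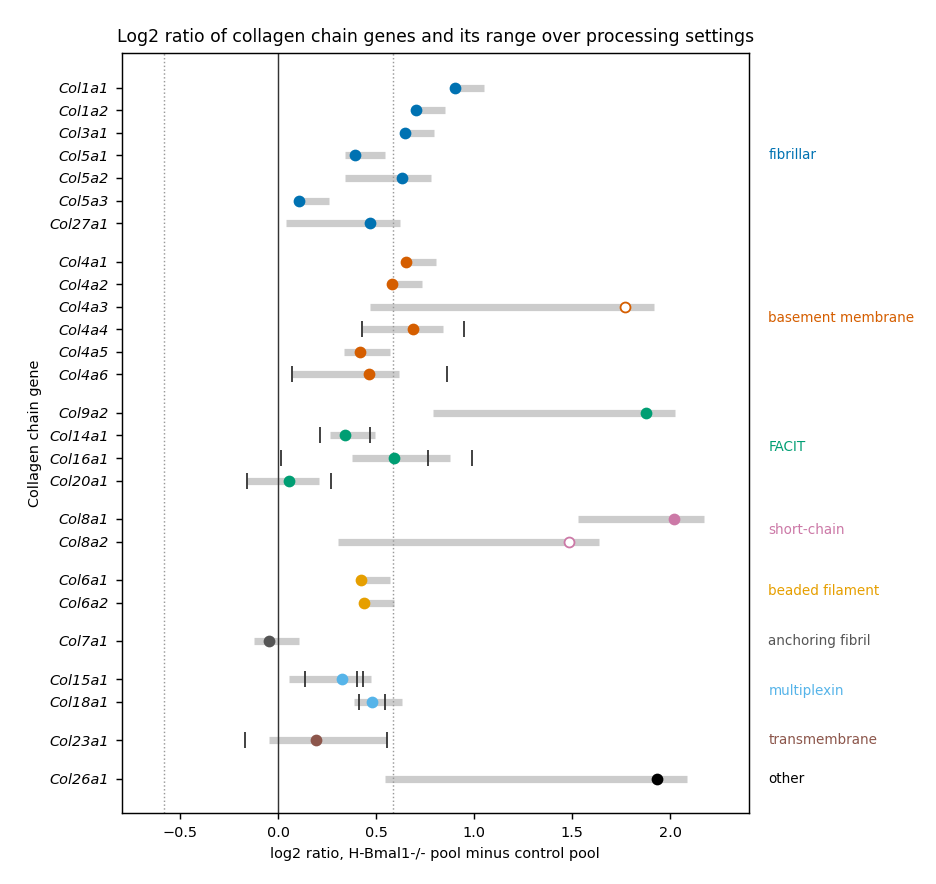
Log2 ratio of each measured collagen chain gene (circles, open where the control signal was not well above background), with its probes as vertical ticks where it has several and the range over the processing alternatives as a gray bar. Dotted lines mark 1.5-fold, and the bars reach 0 or below for Col7a1, Col20a1 and Col23a1, whose sign turned.

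Several collagen chain genes lie side by side in the genome, among them chains that are assembled into the same molecule, and 5 such pairs were measured. Col4a1 and Col4a2 on chromosome 8 are read in opposite directions from annotated starts 21 bases apart (GRCm38.p6), and their log2 ratios were 0.65 and 0.58. Col4a6 and Col4a5 on chromosome X have starts 1343 bases apart on opposite strands and log2 ratios of 0.46 and 0.42. Col6a2 and Col6a1 on chromosome 10 lie on the same strand and had 0.44 and 0.42. Col3a1 and Col5a2 on chromosome 1 had 0.64 and 0.63. In the pair of Col4a4 and Col4a3, also on chromosome 1, the values were 0.69 and 1.77, the latter from a signal that was not well above background in the control pool.

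Lists of genes that act on collagen chains after their synthesis had lower medians than the collagen chain genes. Of 20 enzymes and chaperones of procollagen folding and modification, 15 had a log2 ratio above 0, against 48.4% of all named genes. Their median was 0.14. Among the 19 of them above background on both arrays, none was at least 1.5-fold higher, against 5.10% of all named genes measured on both arrays. At least 1.5-fold lower was 1, against 6.32% of all named genes. P3h2, a prolyl 3-hydroxylase, had a control signal that was not well above background. It entered through the knockout pool, where it was 1.72-fold higher than that signal. P4ha1, a subunit of prolyl 4-hydroxylase, had 0.47. At the lower end were P3h4, a cofactor of lysyl hydroxylation, with log2 signals of 3.97 and 2.78 and a ratio of -1.19, and the chaperone gene Fkbp10 at -0.56. Of 11 measured genes of propeptide removal and cross-linking, 8 were above 0, against 48.4% of all named genes, with a median of 0.32. The 10 above background on both arrays had a median of 0.28. At least 1.5-fold higher were 3 of these 10, against 5.10% of all named genes measured on both arrays. Pcolce, which encodes an enhancer of the protease that removes the propeptide of fibrillar procollagens, had log2 signals of 5.67 and 6.55 and a ratio of 0.88. Loxl4, a lysyl oxidase, also entered through the knockout pool alone, where it was 1.58-fold higher than the dimmest control signal above background. Lox itself had -0.48, with its probes at -1.09 and 0.14, and the protease gene Tll1 had -0.28. Both were dim, with processed signals of 18.7 (control) and 13.6 (knockout) for Lox and 20.5 and 18.7 for Tll1. The lowest signal well above background was 11.1.

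Of 9 measured genes of collagen degradation and uptake, 6 were above 0, against 48.4% of all named genes, with a median of 0.21. Among the 8 above background on both arrays, 2 were higher by 1.5-fold or more and 1 was lower by as much. Of all named genes measured on both arrays, 5.10% were at least 1.5-fold higher, and of all named genes 6.32% were at least 1.5-fold lower. Ctsk, the collagen-cleaving cathepsin K, had a log2 ratio of 0.65 and Mmp2, a gelatinase, 0.63. The collagenase gene Mmp13 had -0.80, from dim processed signals of 32.1 (control) and 20.5 (knockout). Mmp9, the other gelatinase, entered through the control pool alone, where it lay 1.41-fold above the dimmest knockout signal above background. The 6 measured collagen receptor genes had a median of 0.08, with Ddr1 at 0.75 and Itga11 at 0.55 as the highest and Itga1 at -0.23 and Lair1 at -0.05 as the lowest. Of 12 genes of the TGF-β signal, a known inducer of collagen genes, 9 were above 0, against 48.4% of all named genes. Their median was 0.13. At least 1.5-fold higher were 4 of them, against 7.31% of all named genes, and none was 1.5-fold lower, against 6.32%. Ccn2, a matricellular target of this signal, had log2 signals of 3.59 and 6.42 and a ratio of 2.83, and the ligand gene Tgfb2 had 0.98. The ligand gene Tgfb1 had -0.14 and Smad4, the common mediator, -0.20. Without scaling, which raises every log2 ratio by 0.15, the values of Lair1 and Tgfb1 lie above 0. These lists therefore had medians below that of the collagen chain genes, while some of their genes had large log2 ratios.

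**Figure D4:**
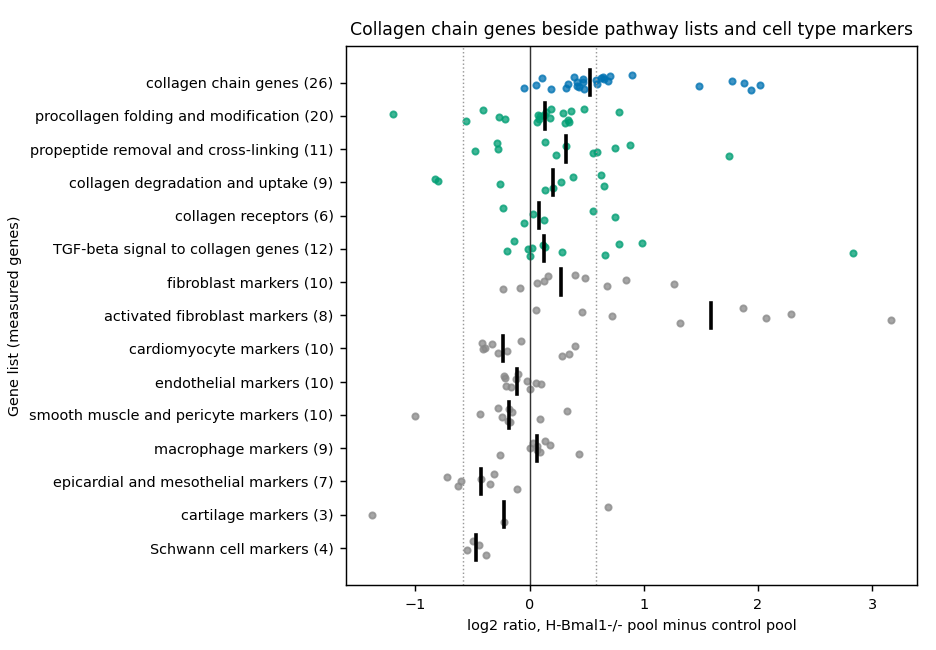
Log2 ratio (knockout pool minus control pool) of each measured gene of the collagen chain genes, of pathway lists around collagen and of cell type markers, with the number of genes in parentheses and the median as a black bar. Exact ratios are drawn also for genes above background on 1 array only, dotted lines mark 1.5-fold, and the median is 0.53 for the collagen chain genes, 1.59 for activated fibroblast markers and between -0.47 and 0.32 for the other lists.

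Markers of the cells that make or neighbor collagen were read in the same pools. The lists were chosen with earlier results of these data known, so that their counts are descriptions and no independent evidence. All 10 fibroblast markers were measured, with a median of 0.28. A log2 ratio above 0 was found for 8, against 48.4% of all named genes. At least 1.5-fold higher were 3, against 7.31%. Mfap5 at 1.26 and Lum at 0.84 were the highest, and Fbln1 at -0.24 and Thy1 at -0.09, which turned sign without scaling, were the lowest. The summed signal of the 10 markers, in multiples of the 75th percentile, was 484 for control and 641 for knockout. The brightest marker had a processed signal of 34524 of the 83688 summed for control, and 53804 of 122624 for knockout. The next had 31104 and 36054, so that this sum depends much on its brightest genes. Of 10 markers of activated fibroblasts, 8 were measured. All 8 were above 0, against 48.4% of all named genes, and 6 were at least 1.5-fold higher, against 7.31%. They had a median of 1.59 and a summed signal of 53.2 for control and 81.5 for knockout. Cilp, a matrix protein of activated fibroblasts, had log2 signals of -0.70 and 2.46 and a ratio of 3.17, and Ltbp2, which binds to microfibrils, had 0.10 and 2.39 and a ratio of 2.29. Fn1 had 0.46 and Acta2, which smooth muscle also expresses, 0.06, while Cthrc1 and Tnc were not well above background on either array. Acta2 alone had a processed signal of 6076 of the 9105 summed over the 8 markers for control, and 7036 of 15499 for knockout. The sums of the activated fibroblast markers thus depend much on this gene. With no filter on dim probes, which adds such genes, the median of the activated fibroblast markers was 1.02. The part of these cells in the log2 ratios of the collagen chain genes was not tested, and in bulk tissue more cells of a type cannot be told apart from more RNA per cell.

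The markers of other cell types had medians between -0.47 and 0.06. Of all named genes, 48.4% had a log2 ratio above 0. The 10 cardiomyocyte markers had a median of -0.23, or between -0.25 and -0.04 over the alternatives, with 3 above 0, and a summed signal of 6990 and 6392 in the control and knockout pools. The 10 endothelial markers had a median of -0.11, which turned to 0.04 without scaling, with summed signals of 203 and 198, and the 10 smooth muscle and pericyte markers had -0.18 with 75.5 and 60.3. The 9 measured macrophage markers had a median of 0.06, with quartiles of 0.03 and 0.14, and 8 of them were above 0. These quartiles are below the 0.15 by which leaving out scaling raises every log2 ratio. All 7 epicardial and mesothelial markers were below 0 (Krt8 not without scaling), with a median of -0.42, as were the 4 measured Schwann cell markers, with a median of -0.47. Of 8 cartilage markers, Acan, Hapln1, Matn1, Matn3 and Snorc were not well above background. The other 3 had a median of -0.22, which was 0.23 with the filter on both arrays. Sox9, a transcription factor of cartilage that other cells also express, had a log2 ratio of 0.69 and Chad -0.22. Cnmd was above background in the control pool alone, where it lay 1.36-fold above the dimmest knockout signal above background. Most of the listed cartilage markers were thus not well above background on either array. Col9a2 and Col27a1 were themselves dim, with processed signals of 21.7 and 17.0 in the control pool. The lowest control signal well above background was 11.1.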

How the data were processed

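The authors hybridized the pooled RNA to single-color Agilent arrays, and the deposited intensities are the background-subtracted processed signal of Agilent Feature Extraction on a linear scale, not scaled between arrays. The processing notes name version 10.5.1.1 and the scanner output 10.10.1.1. The deposited value table holds the same signal multiplied by a constant for each array (on the log2 scale, 2.45 in control and 2.31 in knockout), with medians of 67.2 and 64.0. How the constant was chosen is unknown here.

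From these intensities log2 was taken and the 75th percentile of the 59305 noncontrol spots of the array was subtracted. Spots with an outlier flag (269) were left out, and spots of a probe were averaged. A probe counted as well above background where at least 50% of its spots were, and a gene is the mean of its probes that were so on 1 array or both. Of 55676 probes, 26759 were named through an accession in a table of mouse RefSeq genes (GRCm38.p6). Of 61 probes for collagen chain genes, 36 were used, and 18 genes rested on 1 probe. For a gene not well above background on 1 array, the fold is set against the lowest signal there that was, 11.1 on each array. For P3h2 the gene's own control signal was higher and was used. Such folds are no lower limits. Collagen probes with control signals up to 13.9 were not well above background, and normexp gave smaller values for Col4a3 and Col8a2. With 1 array per genotype no test was made. Promoters and motifs were read from a RefSeq table of the same build.

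Collagen classes, pathway lists and markers were written from textbook knowledge, and the members and lists were chosen with earlier results of these data known. Every measured collagen chain gene is named, and of each other list at most the 2 highest and 2 lowest measured genes, although several marker lists are given as counts. The 10 alternatives were quantile normalization, cyclic loess, scaling to the median of probes above background or to 7 E1A spike-in probes, no scaling, normexp with an offset of 50, filters on dim probes (both arrays, or none), the brightest probe, and the deposited table, with a 2-fold limit besides. Normexp used the median signal and local background, since the files used here hold no mean signal. The steps were tested on simulated data. Python 3.11.15, numpy 2.4.6, pandas 2.3.3, scipy 1.17.1, matplotlib 3.10.9, R 4.3.3 and limma 3.58.1 were used.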

Additional observations from a re-analysis of the deposited data

How the results depend on the processing

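The count of collagen chain genes with a log2 ratio above 0 lay between 23 and 26 of 26 wherever the same genes were kept and was 28 of 42 with no filter on dim probes, where 39.8% of all named genes were above 0. Under all 10 alternatives 21 genes were above 0 and 6 (Col1a1, Col1a2, Col3a1, Col4a1, Col8a1 and Col9a2) at least 1.5-fold higher. Col4a3 and Col8a2 were above 0 under the 9 that kept them, and Col7a1, Col20a1 and Col23a1 turned sign. The median log2 ratio was 0.68 without scaling, which moved the median of all named genes to 0.14 and the share of them above 0 to 69.8%. It was 0.38 with normexp and 0.40 with no filter on dim probes, which adds 16 genes near background. The number at least 1.5-fold higher was 7 with normexp, against 2.72% of all named genes, and 17 without scaling, against 10.7%. At a 2-fold limit it was 5, against 3.48%. With no filter 3 of 42 genes were at least 1.5-fold lower, against 8.20% of all named genes. With normexp the number of all named genes at least 1.5-fold higher fell as well, from 1012 to 377.

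The class medians moved by more than the 0.07 spread between spots as follows. Without scaling they were 0.78 for fibrillar, 0.77 for basement membrane, 0.61 for FACIT, 1.90 for short-chain and 0.58 for beaded filament chains. With normexp they were 0.34, 0.45, 0.32 and 0.92 for the first 4 of these classes. With no filter they were 0.39 for fibrillar, 0.0185 for FACIT and 0.41 for short-chain chains. With the filter on both arrays, FACIT had 0.61 and short-chain 2.02, and with the brightest probe FACIT had 0.61 and basement membrane 0.50. Of 258 single-gene values under an alternative, 58 moved by more than the spread between spots and none of those at least 1.5-fold higher changed sign. Of 140 medians of pathway and marker lists under an alternative, 26 moved by more than that spread, and the endothelial (0.04 without scaling) and cartilage medians (0.23 with the filter on both arrays) turned sign. The cause of these shifts was not tested, apart from the genes that a filter adds or removes. No paired analysis was possible because there is 1 array per genotype, and for the same reason no array could be left out. Of the collagen chain genes, Col4a3, Col8a2, Col9a2 and Col26a1 moved most with normexp. Their values are limited by dim probes, and Col20a1, which was also dim, moved from 0.05 to -0.04 with normexp.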

Other observations

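The 16 collagen chain genes that were not well above background had 22 probes, with processed signals between 2.37 and 13.9 in the control pool and between 2.34 and 11.5 in the knockout pool. When no filter was applied, 3 of 42 collagen chain genes were at least 1.5-fold lower, against 8.20% of all named genes, and those named here were chosen after their values had been seen. Col13a1, a transmembrane collagen gene, had a log2 ratio of -2.38, the FACIT gene Col19a1 had -1.41, and the transmembrane gene Col25a1 had probes at -1.91, -0.18 and -0.18. In the other direction, the probes of Col6a4 had 1.03 and -0.15 and that of Col28a1 had 0.57. None of these signals was well above background on either array, and they enter no count of the measured genes.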
